A study of Mus musculus with 24 samples.

Results

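Transcripts of 10 genes of fibroblasts and the extracellular matrix were followed through macrophages, monocytes and neutrophils sorted from mouse colon lamina propria (LP) and from colon tumours. The genes were Dcn, Lum, Bgn, Col1a1, Col1a2, Col3a1, Col4a1, Col4a2, Col6a1 and Sparc, and all 10 were found by symbol among the 17301 genes of the expression table. They were selected on measured values, with the low Dcn level of tumour macrophages against LP macrophages already known. Values of these 10 genes in macrophages of tumour and LP are therefore given as a description, with no test, and tests are confined to monocytes, neutrophils and comparisons within a tissue. Those tests are not blind to the choice either, since earlier results of these data were known.

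LP cells came from mice labelled C57/BL and tumour cells from mice labelled APC/Min, a strain that per the study's methods develops adenomas spontaneously and that is known to carry a germline mutation of the tumour suppressor gene Apc. Per the methods, mice of both genotypes and both sexes had been given dextran sodium sulphate, a chemical that injures the colon, at 6 to 8 weeks of age and were used 4 weeks later, at 3 to 4 months of age. The labels call the LP donors healthy, so what the LP mice received is not settled here. Within each tissue, MHCIIhi and MHCIIlow macrophages (F4/80hi CD11b+), monocytes (F4/80int Ly6Chi MHCII-) and neutrophils (Ly6Ghi) were sorted, which gave 8 groups of 3 libraries. Each library held cells pooled from 13 to 15 mice, so it averages over mice and no value belongs to 1 animal. The labels give each library a donor with a Roman numeral, II to V in LP and I, II, V and VII in tumour. A donor is called a pool here, since the cells were pooled. Several populations of a tissue share numerals, but whether equal numerals mean the same mice is not stated. Colon was stripped of epithelium before digestion and tumour was not, and the density gradients differed, so genotype, tissue and preparation cannot be told apart. The libraries carried 12.84 to 41.72 M reads on genes, with a median of 26.4 M.

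Fibroblasts build most of the matrix of the gut wall. Fibrillar collagens (Col1a1 and Col1a2, the chains of type I collagen, and Col3a1, type III) form the fibres, and the small leucine-rich proteoglycans decorin (Dcn), lumican (Lum) and biglycan (Bgn) coat them and set their spacing. Type VI collagen (Col6a1) makes beaded filaments around cells, and Sparc encodes a collagen-binding matricellular protein. Type IV collagen, made of the chains encoded by Col4a1 and Col4a2, is the network of basement membranes and is also made by endothelial, epithelial and other cells. Fibroblasts are not part of any of the sorted gates, and in libraries of many cells a lower level can mean fewer cells of a type or less RNA per cell, which cannot be told apart.

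Marker genes of the sort were checked in each population. Adgre1, which encodes F4/80, had a mean of 8.79 and 8.01 in LP MHCIIhi and MHCIIlow macrophages and 8.64 and 8.09 in those of tumour, in log2 RPKM (read counts scaled to the length of the gene and a library size set in the deposited values, on which a log2 of 0 stands for 1 RPKM). That size was 0.466 to 0.682 times the reads on genes in neutrophil libraries and 1.133 to 1.507 times in macrophage libraries. Against summed reads, neutrophil levels are thus raised and macrophage levels lowered, which bears on comparisons between populations. Ly6c2, the monocyte Ly6C antigen, had a mean of 6.07 in LP monocytes and 5.93 in tumour monocytes, but also 5.66 in LP neutrophils and 6.39 in tumour neutrophils, so it separates both from macrophages and not from each other. Ly6g, the neutrophil antigen, had a mean of 6.01 in LP neutrophils and 8.05 in tumour neutrophils, against -2.43 and -0.78 in the monocytes of LP and tumour. Pdgfra, a receptor that defines many gut fibroblasts, was low and uneven in LP, with 0 to 91 reads per library. Its LP group means ran from -6.37 to -2.58, and each group but MHCIIlow macrophages held a library with 0 reads (-9.57), which lowers the mean. In tumour it had 8 reads in MHCIIhi macrophages of pool V, and no read was found in MHCIIlow macrophages, monocytes or neutrophils.

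The 8 genes other than the type IV collagen pair were present in every LP library and scarce in tumour. Their summed level was 16.9 ± 8.42 RPKM (SD, n = 3) in LP MHCIIhi macrophages, with group means of 62.4 in MHCIIlow macrophages, 26.0 in monocytes and 34.2 in neutrophils. In tumour the group means were 0.899, 0.774, 0.305 and 1.85 RPKM in the same order. All 10 genes had reads in each of the 12 LP libraries, whereas 4 to 8 of the 10 had reads in a tumour library. For 7 of the 10 (all but Col1a1, Col4a1 and Col4a2) the lowest LP library lay above the highest tumour library, which held for 40 of the 12866 genes tested (0.311%), these 7 included. Each of these 7 was among the genes tested only through its LP levels, since none of its tumour groups averaged 1 RPKM.

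**Figure D1:**
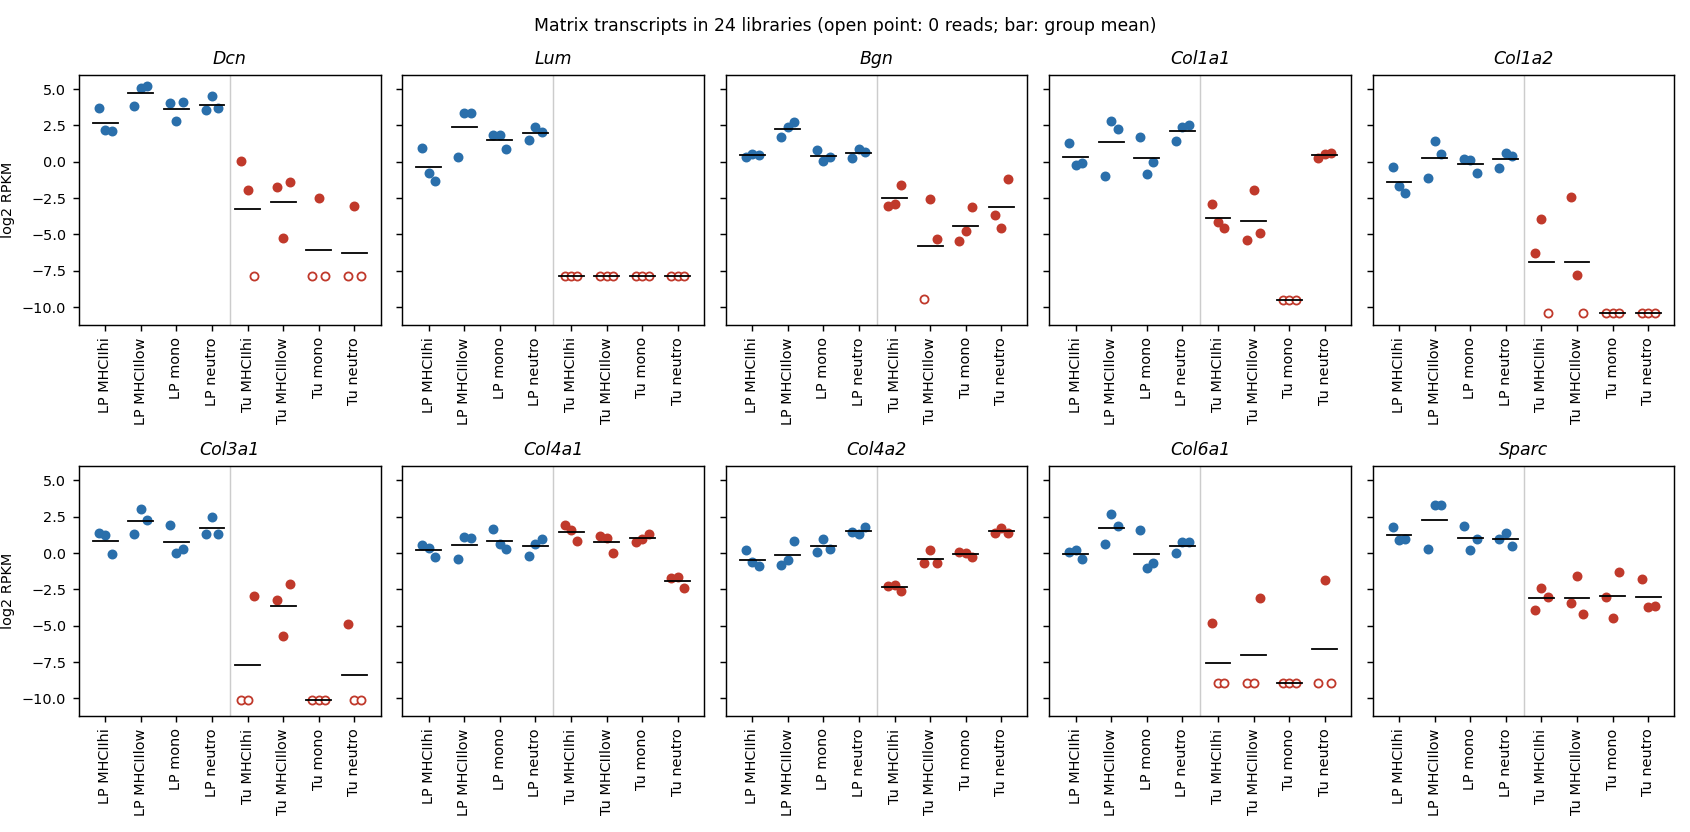
Level of each of the 10 transcripts in all 24 libraries, in log2 RPKM, by population and tissue. Each point is 1 library of pooled mice, open points are libraries with 0 reads, and the tumour points nearest to those of LP are those of Col4a1, of Col4a2 and of Col1a1 in neutrophils.

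Decorin had the highest mean RPKM of the 10 in every LP group. Its level was 3.71, 2.21 and 2.1 in the LP MHCIIhi libraries (pools III, IV and V), 3.86, 5.07 and 5.22 in the MHCIIlow libraries (pools II, III and IV), 4.05, 2.78 and 4.09 in monocytes (pools III, IV and V) and 3.57, 4.5 and 3.69 in neutrophils (pools III, IV and V). These levels rest on 280 to 1504 reads per library, and Dcn supplied 34.9 to 66.8% of the summed RPKM of the 8 genes. In tumour MHCIIhi macrophages Dcn had 58 reads in pool I (0.03 in log2 RPKM), 24 in pool V (-1.92) and 0 in pool VII. In tumour MHCIIlow macrophages it had 16, 2 and 22 reads in pools I, V and VII (-1.77, -5.25 and -1.39). The LP and tumour macrophage libraries did not overlap, and the tumour libraries were spread more widely than those of LP. The difference of group means, tumour minus LP, was -5.93 in MHCIIhi macrophages and -7.52 in MHCIIlow macrophages on the log2 scale, and from the reads pooled over each group LP exceeded tumour 19.0-fold and 126-fold. A library with 0 reads was deposited at a fixed low value (-7.88 for Dcn), set by the small count added before the log, so the log2 differences depend on that value. The MHCIIhi difference also depends on 1 library, tumour pool VII, since without it the difference was -3.62.

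Dcn fell in monocytes and in neutrophils as well. The low level stated in the choice of the genes was that of macrophages. Genes and comparisons were still chosen with earlier results of these data known, so these tests are not blind to the choice. Tumour monocytes had 0, 10 and 0 reads (pools I, II and V) and tumour neutrophils 0, 2 and 0. The differences were -9.74 (SE 1.7, limma adjusted p = 0.000978) in monocytes and -10.18 (SE 1.7, limma adjusted p = 0.000139) in neutrophils, which is 223-fold and 434-fold by pooled reads. The neutrophil fold rests on 2 tumour reads, with a counting interval of 120 to 3590. These tests draw on LP libraries with the same numerals as the macrophages, so they may be other libraries of the same mice rather than separate mice.

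Lumican showed the same separation with no tumour reads at all. Its level was 0.96, -0.76 and -1.31 in LP MHCIIhi macrophages (pools III, IV and V), 0.36, 3.36 and 3.38 in MHCIIlow macrophages (pools II, III and IV), 1.85, 1.87 and 0.85 in monocytes and 1.5, 2.37 and 2.04 in neutrophils, from 26 to 460 reads. All 12 tumour libraries had 0 reads. Set against a floor of 3 reads over a group, tumour was at least 69.7-fold lower in MHCIIhi macrophages and at least 386-fold lower in MHCIIlow macrophages. Such bounds, here and below, count each read as a separate fragment and would be lower if 2 reads were 1 fragment. Lum fell in tumour monocytes (at least 175-fold lower, limma adjusted p = 8.81e-07) and in tumour neutrophils (at least 74.9-fold lower, limma adjusted p = 9.93e-08). Every tumour library sat at the value deposited for 0 reads (-7.87), so tumour adds no spread to the fit. These p-values therefore depend on that value and measure no spread between tumour replicates. The same holds in part for other genes with tumour groups at 0 reads throughout. Lum lies 47.0 kb from Dcn on the same strand of chromosome 10 (Dcn at 97479609 to 97518143 and Lum at 97565128 to 97572703, GRCm38).

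Biglycan, the X-linked relative of decorin, was lower in tumour but still detected in 11 of the 12 tumour libraries. In LP it was even across the MHCIIhi libraries (0.34, 0.55 and 0.46) and higher in the MHCIIlow ones (1.7, 2.42 and 2.71). Tumour MHCIIhi macrophages had 20, 36 and 58 reads (-3.05, -2.89 and -1.6), and tumour MHCIIlow macrophages 0, 44 and 4. LP monocytes had levels of 0.78, 0.07 and 0.35 against -5.42, -4.79 and -3.12 in tumour (difference -4.84, SE 1.18, limma adjusted p = 0.0117). LP neutrophils had 0.24, 0.91 and 0.68 against -3.64, -4.58 and -1.22 in tumour (difference -3.76, SE 1.18, limma adjusted p = 0.0192). The Bgn calls were the least secure of the proteoglycans. In monocytes the adjusted p was 0.0588 without tumour pool I, and in neutrophils it rose to 0.0851 without tumour pool II, to 0.0545 without tumour pool I and to 0.0515 without LP pool IV.

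The promoters of Col1a2 and Col3a1, fibrillar collagen genes that both fell in tumour monocytes and neutrophils, are shown from RefSeq (GRCm38.p6), from 250 bases before to 50 bases after the annotated start, 5′ to 3′. Of the 10 genes 7 had a window in that table. Capitals mark matches, on either strand, to TATAAA, to CCAAT or to GGGCGG, motifs that were found in 13.6%, 37.4% and 35.7% of all 32851 windows of this length. The Col1a2 window is chr6:4505368-4505667 on the forward strand and the Col3a1 window chr1:45311288-45311587 on the forward strand.
Col1a2: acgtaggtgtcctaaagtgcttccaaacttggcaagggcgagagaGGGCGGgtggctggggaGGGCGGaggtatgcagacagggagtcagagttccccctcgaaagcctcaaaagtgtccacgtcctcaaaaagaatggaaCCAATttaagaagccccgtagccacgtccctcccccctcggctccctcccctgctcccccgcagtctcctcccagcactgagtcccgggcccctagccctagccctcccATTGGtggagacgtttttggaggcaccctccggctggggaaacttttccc
Col3a1: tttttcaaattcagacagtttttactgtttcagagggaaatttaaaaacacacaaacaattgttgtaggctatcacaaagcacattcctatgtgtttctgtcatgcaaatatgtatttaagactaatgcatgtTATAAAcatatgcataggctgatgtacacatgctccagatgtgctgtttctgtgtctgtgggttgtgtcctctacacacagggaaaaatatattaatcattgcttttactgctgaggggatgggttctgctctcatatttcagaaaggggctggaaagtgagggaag
The Col1a2 window held GGGCGG 205 and 188 bases before the start and CCAAT 109 bases before it, with a reverse CCAAT from 1 base after it. The Col3a1 window had 1 match, TATAAA at 117 bases before the start, and a GC content of 37.7% against 61.0% for Col1a2. A match describes letters only, and nothing here measures binding.

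Type III and type I collagen transcripts were carried by every LP library. Col3a1 was at 1.35, 1.24 and -0.06 in LP MHCIIhi macrophages (pools III, IV and V), 1.32, 3.02 and 2.29 in MHCIIlow macrophages (pools II, III and IV), 1.9, -0.01 and 0.29 in monocytes and 1.32, 2.48 and 1.29 in neutrophils. In tumour it had 0, 0 and 36 reads in MHCIIhi macrophages, 28, 8 and 62 in MHCIIlow macrophages, 0 in all 3 monocyte libraries and 4, 0 and 0 in neutrophils, against 294 to 1719 per LP library. By pooled reads LP exceeded tumour 56.5-fold in MHCIIhi and 44.6-fold in MHCIIlow macrophages. Col3a1 fell in tumour monocytes (at least 476-fold lower, limma adjusted p = 0.000207) and in tumour neutrophils (221-fold, difference -10.07, SE 1.59, limma adjusted p = 8.03e-05).

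Col1a2 followed Col3a1 at a lower level. Its LP levels ran from -2.14 to -0.35 in MHCIIhi macrophages, -1.14 to 1.41 in MHCIIlow macrophages, -0.8 to 0.2 in monocytes and -0.42 to 0.57 in neutrophils. Tumour MHCIIhi macrophages had 4, 34 and 0 reads and MHCIIlow macrophages 60, 2 and 0, and no tumour monocyte or neutrophil library had a read. It fell in tumour monocytes (at least 311-fold lower, limma adjusted p = 0.000343) and in tumour neutrophils (at least 127-fold lower, limma adjusted p = 4.78e-05).

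Col1a1, which encodes the partner chain of Col1a2, parted from it in neutrophils. Its level was 1.44, 2.41 and 2.52 in LP neutrophils (424, 469 and 810 reads) and 0.29, 0.53 and 0.58 in tumour neutrophils (100, 77 and 75 reads). Those 3 tumour libraries averaged 0.46 ± 0.15 (SD, n = 3) and had no Col1a2 read. The groups did not overlap, but the difference of -1.66 (SE 0.98) missed the threshold (limma adjusted p = 0.213). That SE draws on the spread of all groups. The SD was 0.6 in LP and 0.15 in tumour neutrophils, against 2.03 in LP MHCIIlow macrophages, so the result does not show an unchanged level. Tumour monocytes had no Col1a1 read, against 532, 158 and 238 in LP monocytes (at least 247-fold lower, limma adjusted p = 2.89e-06, and 0.0651 on log2(RPKM + 1)). Within tumour, Col1a1 was higher in neutrophils than in monocytes (difference 10, SE 0.98, limma adjusted p = 4.43e-08), a difference set by the value deposited for 0 reads. The tumour effect in neutrophils exceeded that in monocytes by 8.15 on the log2 scale (SE 1.39, limma adjusted p = 0.0012), a test added after the values were seen, which 9.11% of all genes and 2 of the 10 passed. On log2(RPKM + 1), which damps levels near 0, that difference was 0.05 (limma adjusted p = 0.976), and with limma voom on the reads it was 6.97 (adjusted p = 0.139). In tumour macrophages Col1a1 had 24, 16 and 8 reads (MHCIIhi) and 4, 76 and 6 (MHCIIlow), where LP exceeded tumour 19.5-fold and 23.8-fold. None of the 51-base stretches of Col1a1 exons occurs in exons of another annotated gene.

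Col6a1 and Sparc completed the LP set. Col6a1 had 92 to 606 reads in each LP library, was highest in LP MHCIIlow macrophages (1.73 ± 1.04 log2 RPKM, SD, n = 3) and had 0 reads in 9 of the 12 tumour libraries, with 4, 14 and 10 in the others. It fell in tumour monocytes (at least 138-fold lower, limma adjusted p = 0.00217) and in tumour neutrophils (difference -7.09, SE 1.71, limma adjusted p = 0.0035, and 0.0763 with only the neutrophil libraries fitted). Sparc was the only one of the 8 with reads in each tumour library, 2 to 48 per library against 102 to 714 in LP. Its mean levels in tumour were alike in the 4 populations, from -3.09 to -2.93 log2 RPKM, against 0.96 to 2.29 in LP. By pooled reads it was 17.8-fold lower in tumour MHCIIhi and 29.3-fold lower in MHCIIlow macrophages. It fell in monocytes (difference -3.95, SE 0.92, limma adjusted p = 0.00862) and neutrophils (difference -4.01, SE 0.92, limma adjusted p = 0.00228). The Sparc call in monocytes was lost without tumour pool II (limma adjusted p = 0.0567), and in neutrophils with limma voom on the reads (adjusted p = 0.114).

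Counted together, 8 of the 10 genes fell in tumour monocytes and 8 of 10 in tumour neutrophils, with none rising. Among all 12866 genes tested, 4.44% fell in monocytes and 19.1% in neutrophils. Most of the members that fell were kept for testing only through their LP levels, which leaves more room for a fall than for a rise. The median difference of the 10 was -9.15 in monocytes, where the median of all genes was 0, and -5.55 in neutrophils, where it was -0.12. Groups did not overlap, tumour below LP, for 9 of 10 genes in monocytes and 9 of 10 in neutrophils, against 15.1% and 21.8% of all genes. With library sizes taken as summed reads the count stayed at 8 in each, while the median of all genes moved to -0.16 and -0.57 and the share of all calls that rose moved from 52.3 to 33% in monocytes and from 40.8 to 16% in neutrophils. The genes that did not pass were Col4a1 and Col4a2 in monocytes and Col1a1 and Col4a2 in neutrophils. In macrophages, the contrast behind the choice of the genes, 11.5% of all genes fell in MHCIIhi and 11.8% in MHCIIlow cells.

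**Figure D2:**
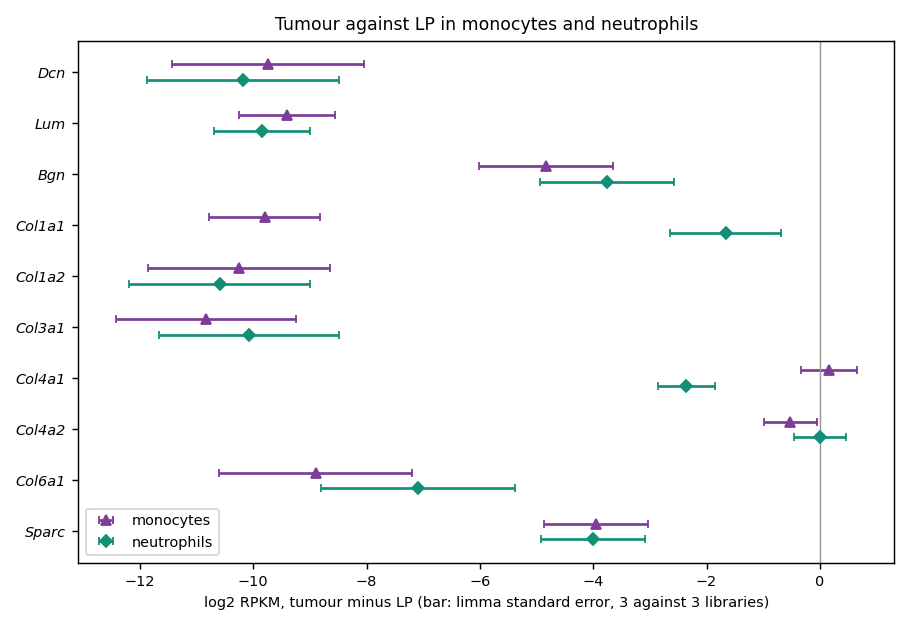
Tumour minus LP difference in log2 RPKM for each of the 10 transcripts in monocytes and neutrophils, 3 libraries against 3, with bars for the standard error of the limma fit. In both populations 8 of 10 lie below 0 past the threshold, and Col1a1 and Col4a1 lie apart between the populations.

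Col4a1 and Col4a2, the chains of type IV collagen, stand head to head on chromosome 8 and share their promoter region, which is why the windows of both are printed. Col4a1 lies at 11198423 to 11312826 on the reverse strand and Col4a2 at 11312805 to 11449287 on the forward strand (GRCm38), so the annotated genes overlap by 22 bases on opposite strands. The windows are chr8:11312777-11313076 on the reverse strand for Col4a1 and chr8:11312555-11312854 on the forward strand for Col4a2 (RefSeq, GRCm38.p6). Each is printed 5′ to 3′ on its own strand, and capitals mark the 78 bases the windows share, read in opposite directions.
Col4a1: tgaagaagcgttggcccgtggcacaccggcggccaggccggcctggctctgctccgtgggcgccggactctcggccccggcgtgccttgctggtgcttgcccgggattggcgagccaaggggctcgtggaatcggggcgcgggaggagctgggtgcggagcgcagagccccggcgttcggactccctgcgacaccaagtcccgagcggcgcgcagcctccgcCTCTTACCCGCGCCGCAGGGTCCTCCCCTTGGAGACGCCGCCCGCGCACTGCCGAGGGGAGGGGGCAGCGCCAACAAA
Col4a2: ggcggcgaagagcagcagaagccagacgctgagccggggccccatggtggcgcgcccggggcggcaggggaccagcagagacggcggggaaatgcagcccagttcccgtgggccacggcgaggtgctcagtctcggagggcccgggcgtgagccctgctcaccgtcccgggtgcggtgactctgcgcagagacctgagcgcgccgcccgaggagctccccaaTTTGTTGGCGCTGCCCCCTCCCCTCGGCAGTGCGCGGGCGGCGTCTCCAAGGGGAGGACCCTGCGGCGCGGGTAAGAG
Both windows are rich in GC, at 74.0% and 73.7% where the median of all windows was 52.7%. A CCAAT stood in reverse 145 bases before the start of Col4a1 and forward 32 bases before the start of Col4a2, and both windows held GGGCGG.

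This pair made up more of the matrix signal in tumour than in LP. It made up 3.31 to 18.1% of the summed RPKM of the 10 genes in LP libraries and 58.8 to 95.2% in tumour libraries. Col4a1 was at 0.55, 0.37 and -0.28 in LP MHCIIhi macrophages (pools III, IV and V) and at 1.91, 1.59 and 0.81 in those of tumour (pools I, V and VII), where the groups did not overlap and tumour was higher by 2.31-fold in pooled reads. Col4a2 in the same cells went the other way, from 0.21, -0.64 and -0.91 in LP to -2.28, -2.21 and -2.62 in tumour, 4.01-fold lower. In MHCIIlow macrophages both genes overlapped between tissues, with differences of 0.18 and -0.22. In monocytes neither passed the test: Col4a1 differed by 0.16 (SE 0.5, limma adjusted p = 0.908) and Col4a2 by -0.52 (SE 0.46, limma adjusted p = 0.572).

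Neutrophils split the pair. Col4a1 fell from -0.21, 0.61 and 0.97 in LP neutrophils to -1.7, -1.62 and -2.38 in tumour neutrophils (26, 18 and 10 reads), a difference of -2.36 (SE 0.5, limma adjusted p = 0.00129), although limma voom on the reads gave an adjusted p of 0.0877. Col4a2 was at 1.47, 1.31 and 1.78 in LP and 1.41, 1.74 and 1.41 in tumour neutrophils, a difference of 0 (SE 0.46). Within tumour, neutrophils had less Col4a1 (difference -2.91, SE 0.5, limma adjusted p = 5.42e-05) and more Col4a2 (difference 1.59, SE 0.46, limma adjusted p = 0.00562) than monocytes. With library sizes taken as summed reads, a choice made after the data were seen, the Col4a2 difference was 0.45 (adjusted p = 0.394) and the median of all genes in that comparison moved from -0.36 to -1.45. The tumour effect on Col4a1 was lower in neutrophils than in monocytes by 2.52 (difference -2.52, SE 0.71, limma adjusted p = 0.0304), which was lost with limma voom (adjusted p = 0.156), with quantile normalization (0.079), with only the libraries compared (0.0587) and without any of 7 single libraries (up to 0.0754). Those were LP monocytes of pools IV and V, LP neutrophils of pools IV and V, tumour monocytes of pools II and V, and tumour neutrophils of pool V.

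The balance of the chains, log2 of Col4a1 minus log2 of Col4a2 within a library, summed this up. It ran from 0.35 to 1.01 in LP MHCIIhi macrophages, 0.17 to 1.58 in LP MHCIIlow macrophages, -0.38 to 1.54 in LP monocytes and -1.68 to -0.69 in LP neutrophils. In tumour it ran from 3.43 to 4.2 in MHCIIhi macrophages, 0.64 to 1.85 in MHCIIlow macrophages, 0.71 to 1.59 in monocytes and -3.79 to -3.12 in neutrophils. The ranges of neutrophils and monocytes did not overlap in either tissue, with means of -1.06 against 0.39 in LP and -3.42 against 1.08 in tumour, nor did those of tumour MHCIIhi and MHCIIlow macrophages, with means of 3.81 against 1.13. Each of these 3 comparisons had an exact permutation p of 0.1 (two-sided, 3 against 3 libraries), the smallest the design allows, so no adjustment can bring it under the threshold. Col4a2 itself was higher in tumour MHCIIlow than in tumour MHCIIhi macrophages (difference 2, SE 0.46, limma adjusted p = 0.0382), the only 1 of the 10 to differ there, where 1.13% of all genes passed. That call was lost with limma voom (adjusted p = 0.0573), with only the libraries compared (0.238), and without any of 5 single libraries. The adjusted p was 0.0778, 0.0556 and 0.126 without MHCIIhi pools I, V and VII, and 0.165 and 0.0686 without MHCIIlow pools V and VII.

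**Figure D3:**
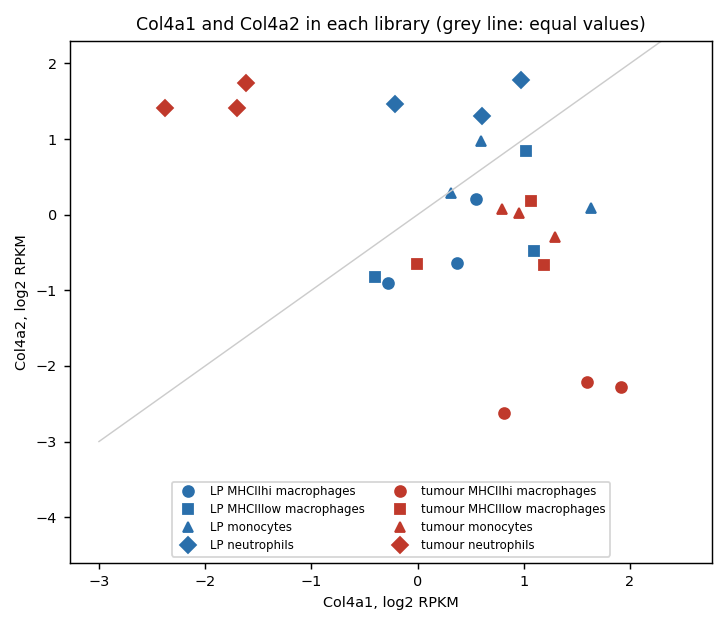
Col4a1 against Col4a2 in log2 RPKM, 1 point per library, by population and tissue. Tumour MHCIIhi macrophages sit at high Col4a1 with low Col4a2 (balance 3.43 to 4.2) and tumour neutrophils at the opposite corner (-3.79 to -3.12).

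Among LP libraries the 8 genes rose and fell together from library to library. Over the 12 LP libraries their 28 pairs had a Pearson r of 0.42 to 0.97 with a median of 0.72. Col4a1 was less tied to them (0.29 to 0.73, median 0.58), Col4a2 less again (-0.21 to 0.56, median 0.19), and Col4a1 with Col4a2 had an r of 0.27. These are descriptions, since the points share pool numerals and span 4 populations.

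The highest library was not of the same pool in each population. In MHCIIhi macrophages pool III held the highest value for 6 of the 8 genes, and pool V the lowest for 5. In monocytes pool III again held the highest for 6, and pool IV the lowest for 6. In neutrophils pool IV held the highest for 7 and pool III the lowest for 6. In MHCIIlow macrophages pool II held the lowest value for all 8, with a mean level of 0.76 log2 RPKM against 3.01 in pool III and 2.69 in pool IV. No other LP population had a library with numeral II.

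**Figure D4:**
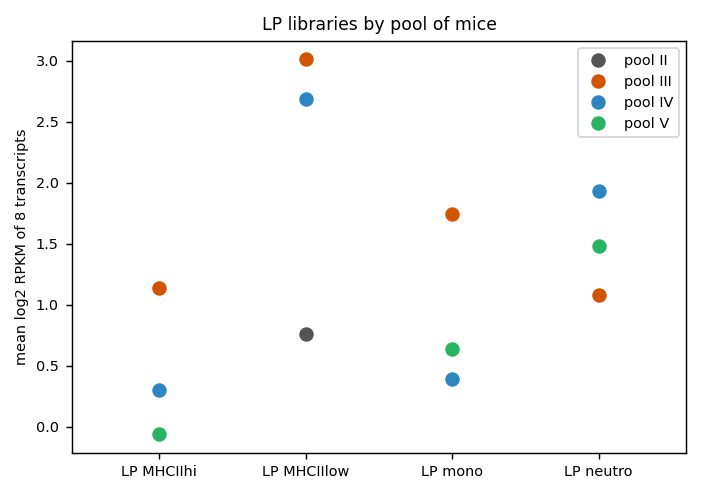
Mean log2 RPKM of the 8 transcripts other than Col4a1 and Col4a2 in each LP library, coloured by pool numeral. Pool III is highest in MHCIIhi macrophages (1.14), MHCIIlow macrophages (3.01) and monocytes (1.74) and lowest in neutrophils (1.08).

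For 7 of the 10 genes the highest LP group mean was that of MHCIIlow macrophages, for Col1a1 and Col4a2 that of neutrophils and for Col4a1 that of monocytes, but few of these differences passed a test. The median difference of the 10 genes, MHCIIlow minus MHCIIhi, was 1.52, where that of all genes was -0.03. Groups did not overlap for Dcn (2.04, adjusted p = 0.584), Bgn (1.82, adjusted p = 0.433) and Col6a1, all higher in MHCIIlow, against 14.6% of all genes. By limma 0 of 10 passed, 1 had an unadjusted p under 0.05 (Lum, difference 2.74, SE 0.85, adjusted p = 0.0527, and 0.0118 without MHCIIlow pool II), and limma voom on the reads called 2 (Dcn and Bgn), while 7.7% of all genes passed. Of those calls 27.6% were higher in MHCIIlow cells, a share of 37.9% after quantile normalization and 63.1% with library sizes as summed reads. On log2(RPKM + 1), which damps levels near 0, 6 of the 10 passed. The limma SE draws on all 8 groups, tumour libraries at or near 0 reads included. Dcn had an SD of 0.9 and 0.75 in LP MHCIIhi and MHCIIlow macrophages, against 4.12 in tumour MHCIIhi macrophages. For Bgn the SD was 0.1 and 0.52 in those LP groups, against 3.44 in tumour MHCIIlow macrophages. A difference within LP that did not pass therefore does not show equal levels. Between LP neutrophils and monocytes 0 of 10 passed by limma where 54.5% of all genes did. Of the 10, 1 had an unadjusted p under 0.05 (Col4a2, difference 1.07, SE 0.46, adjusted p = 0.0545, and 0.0359 without monocyte pool IV), and limma voom called 2 (Col1a1 and Col4a2). Between tumour neutrophils and monocytes the 3 called were Col1a1, Col4a1 and Col4a2, where 58.1% of all genes passed. The other 7 had at most 52 reads over either group.

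The genes whose pattern was most like that of Dcn were sought among 11240 named genes that passed the filter. The 5 with the highest Pearson r over the 24 libraries were Cxcl12 (r = 0.91, Spearman rho = 0.91), a chemokine of stromal cells, Fstl1 (0.91 and 0.95), a secreted glycoprotein, Serping1 (0.89 and 0.94), the C1 inhibitor of complement, Serpinh1 (0.89 and 0.89), the collagen chaperone HSP47, and Sfrp1 (0.89 and 0.93), a secreted Wnt antagonist. The libraries fall into an LP and a tumour cluster, so these values mostly restate that separation. Within the 12 LP libraries r was 0.85, 0.71, 0.9, 0.66 and 0.88 in the same order. In tumour these genes had 0 reads in 10, 9, 9, 10 and 11 of 12 libraries and at most 6, 28, 22, 14 and 24 reads in any. Of the other members, Col1a2 (r = 0.92), Col6a1 (0.91) and Lum (0.89) were as close to Dcn over the 24 libraries, and Col4a1 (0.27) and Col4a2 (0.13) were far from it.

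Other genes of the matrix moved in both directions in macrophages. In 7 lists of 136 genes (fibroblast identity, other collagens, other leucine-rich proteoglycans, glycoproteins and elastic fibre, basement membrane, collagen processing, collagen receptors) 64 genes had enough signal to be tested. Of these, 5 rose and 18 fell in tumour MHCIIhi macrophages, where 8.01% of all genes rose and 11.5% fell, and 7 rose and 25 fell in MHCIIlow macrophages, where 11.6% rose and 11.8% fell. Their median differences were -0.54 and -0.57, against 0 and 0.06 for all genes. In monocytes 5 rose and 12 fell (median -1.1), where 4.87% of all genes rose and 4.44% fell. In neutrophils 6 rose and 21 fell (median -0.82), where 13.1% rose and 19.1% fell. These lists were drawn up with earlier results of the same data known, so their direction is no independent evidence. The filter limit given for the members holds for the lists too. A gene kept only through its LP levels is more open to a fall, and the shares of all genes do not correct for that.

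Glycoproteins and elastic fibre genes supplied more of the falls in macrophages than any other of the 7 lists. Of 17 tested, 11 fell and 2 rose in tumour MHCIIhi macrophages and 10 fell and 2 rose in MHCIIlow macrophages. Of all genes, 11.5% fell and 8.01% rose in MHCIIhi cells, and 11.8% fell and 11.6% rose in MHCIIlow cells. Fbln1 (fibulin 1) fell by 9.42 in MHCIIhi macrophages (limma adjusted p = 5.66e-05) and Fbln2 (fibulin 2) fell by 9.06 in MHCIIlow macrophages (limma adjusted p = 9.69e-05). Neither had a read in the tumour group compared, so both differences and p-values depend on the value deposited for 0 reads. The same holds for other list genes with a tumour group at 0 reads. Fn1, which encodes fibronectin and is also made by macrophages and monocytes, rose by 1.52 in MHCIIhi macrophages (limma adjusted p = 0.0214) and 1.97 in MHCIIlow macrophages (limma adjusted p = 0.00302). Emilin1, an elastic fibre glycoprotein, rose by 2.05 and 1.79 (limma adjusted p = 1.06e-05 and 3.87e-05). Emilin1 was the only matrix list gene that rose in all 4 populations, whereas 9 fell in all 4: Cygb, Dpt, Efemp1, Fbln2, Loxl1, Mfap4, Postn, Serpinh1 and Sparcl1. The share of all genes that did either was not counted, so these counts have no background to be read against.

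Genes that modify or fold collagen moved both ways, in MHCIIhi macrophages at about the share of all genes. Of 18 tested, 2 fell and 2 rose in MHCIIhi macrophages, where 11.5% of all genes fell and 8.01% rose. In MHCIIlow macrophages 6 fell and 4 rose, where 11.8% of all genes fell and 11.6% rose. Serpinh1, the collagen chaperone, fell by 8.42 and 7.95 (limma adjusted p = 0.000267 and 0.000368), while Colgalt1, a galactosyltransferase of collagen, rose by 1.19 and 1.21 (limma adjusted p = 6.2e-06 and 3.9e-06). Among 8 collagen receptors and uptake genes 1 rose and 3 fell in each macrophage population, against the shares of all genes just given. Lair1, an inhibitory collagen receptor of leukocytes, rose by 1.85 and 1.27 (limma adjusted p = 5.65e-06 and 0.00026). Cd36, a scavenger receptor, fell by 2.16 and 3.79 (limma adjusted p = 0.0422 and 0.000657), and Mrc1, the mannose receptor, fell by 1.67 in MHCIIlow macrophages (limma adjusted p = 0.0464). Of 7 basement membrane genes tested, 0 passed by limma in either macrophage population, where 1 in each had an unadjusted p under 0.05 and limma voom called 0 in MHCIIhi and 2 in MHCIIlow cells. In neutrophils 1, the laminin chain Lamb2, rose (difference 6.9, limma adjusted p = 0.013), though limma voom called 0. Of all genes 13.1% rose in neutrophils.

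The fibroblast identity list had 15 genes in the table, of which 8 could be tested. Of these, 2 fell in tumour MHCIIhi macrophages, 4 in MHCIIlow macrophages, 2 in monocytes and 5 in neutrophils, and no call was upward. Of all genes, 11.5%, 11.8%, 4.44% and 19.1% fell in the same order. Limma voom on the reads called 3, 5, 3 and 4 of the 8 in that order, in either direction. Fap, a protease of activated fibroblasts that was also named after its values were seen, did not pass but was higher in tumour macrophages without overlap, at 1.66 against -0.78 in MHCIIhi cells (limma adjusted p = 0.382) and 1.46 against -1.28 in MHCIIlow cells (limma adjusted p = 0.286). Dpt (dermatopontin), a matrix protein of fibroblasts, fell in all 4, with differences of -7.65, -7.66, -9.61 and -9.4 (limma adjusted p = 0.000114, 8.71e-05, 4.14e-05 and 8.19e-06). Tcf21, a mesenchymal transcription factor, fell by 8.85 in MHCIIlow macrophages (limma adjusted p = 6.32e-05). Pdgfrb, a receptor of pericytes and fibroblasts, fell by 7.85 in neutrophils (limma adjusted p = 3.66e-06) and had means of -0.14, -3.32 and 0.1 in LP MHCIIhi macrophages, MHCIIlow macrophages and monocytes against -1.29, -1.66 and -0.17 in tumour. Thy1 had means of -3.25, -0.86, -1.84 and -2.4 in the LP groups and -4.04, -1.89, -6.21 and -7.61 in the tumour groups, in the order MHCIIhi macrophages, MHCIIlow macrophages, monocytes, neutrophils. Among the 5 other collagens with enough signal, Col6a2, the partner chain of Col6a1, fell by 8.41 in MHCIIlow macrophages (limma adjusted p = 0.00277), and Col15a1 fell by 4.09 in neutrophils (limma adjusted p = 4.39e-05). Col14a1, a fibril-associated collagen named after its values were seen, lay the other way in macrophages, with means of 1.62 in LP and 3.49 in tumour MHCIIhi cells (limma adjusted p = 0.56) and 0.99 and 3.57 in MHCIIlow cells (limma adjusted p = 0.359), without overlap in either. The median of those 5 collagens in MHCIIhi macrophages was 0.62. Limma called 0 of the 5 there and 1 in MHCIIlow macrophages, and limma voom on the reads called 2 and 3. The limma spread is shared by all 8 groups. Col14a1 had an SD of 0.19 and 0.59 in LP and tumour MHCIIhi macrophages, against 4.56 in LP monocytes. Fap had an SD of 0.39 and 0.48 in the same macrophages, against 4.54 in tumour neutrophils. The 1 other leucine-rich proteoglycan tested, Ogn, fell by 7.65 in MHCIIlow macrophages (limma adjusted p = 0.000327).

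Markers of other cells were measured beside the 10 genes. The summed RPKM of the fibroblast identity list ran from 4.36 to 8.95 in LP MHCIIhi macrophages, 10.2 to 30.1 in MHCIIlow macrophages, 12.2 to 17.5 in monocytes and 50.3 to 64.2 in neutrophils. In tumour it ran from 3.79 to 6.17, 3.71 to 8.5, 12.9 to 24.1 and 204 to 294. The neutrophil sums are mostly Pi16, whose mean was 5.61 in LP and 7.91 log2 RPKM in tumour neutrophils. In tumour neutrophils 12 of the 15 genes of the list had 0 reads, and Pi16 alone had reads in every library. Pi16 also made up most of the tumour monocyte sums, at 11.7 to 23.0 RPKM, against 6.15 to 7.48 RPKM in LP monocytes, so the sum in monocytes does not follow the other genes of the list. The smooth muscle and pericyte list summed to 3.59 to 6.22, 8.78 to 17.3, 5.02 to 8.71 and 49.8 to 78.0 in LP and 1.5 to 3.57, 4.13 to 5.09, 5.71 to 7.32 and 65.7 to 85.7 in tumour. Its Acta2 had means of 5.73 and 5.67 in LP and tumour neutrophils, while Myh11, a defining smooth muscle myosin, had means of -5.9 and -7.61.

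The endothelial list summed to 123 to 134, 176 to 260, 81.7 to 107 and 47.0 to 62.5 in LP and 47.6 to 94.6, 111 to 165, 45.1 to 69.8 and 19.2 to 22.9 in tumour, lower in tumour without overlap in each population. Gene by gene the list was less uniform. Of 6 genes tested, 2 fell in MHCIIhi macrophages, 1 in MHCIIlow macrophages, 2 in monocytes and 4 in neutrophils, and 1 rose in MHCIIlow macrophages. Of all genes 11.5%, 11.8%, 4.44% and 19.1% fell in that order, and 11.6% rose in MHCIIlow macrophages. Pecam1, which leukocytes also make, had means of 4.07, 1.58, 3.64 and 4.08 in LP and 4.05, 3.79, 2.62 and 1.28 in tumour. The epithelial list moved the other way, from 8.32 to 22.7, 27.0 to 41.2, 25.6 to 214 and 23.8 to 86.9 in LP to 9.87 to 76.2, 15.8 to 274, 138 to 362 and 196 to 373 in tumour, with overlap in all but neutrophils. Of 10 epithelial genes tested, Krt18, Krt8 and Lgals4 rose in tumour monocytes, and Krt18 and Krt8 in tumour neutrophils (differences 4.19 and 3.09, limma adjusted p = 0.000149 and 0.0204). Of all genes 4.87% rose in monocytes and 13.1% in neutrophils. Epcam had means of 0.22, 0.49, 3.56 and 2.12 in LP and 1.64, 2.17, 4.77 and 5.03 in tumour. The glial list held 3 genes in the table and summed to no more than 0.858 RPKM in LP and 1.74 in tumour. The part of fibroblasts, endothelium or epithelium in the levels of the 10 genes was not tested.

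**Figure D5:**
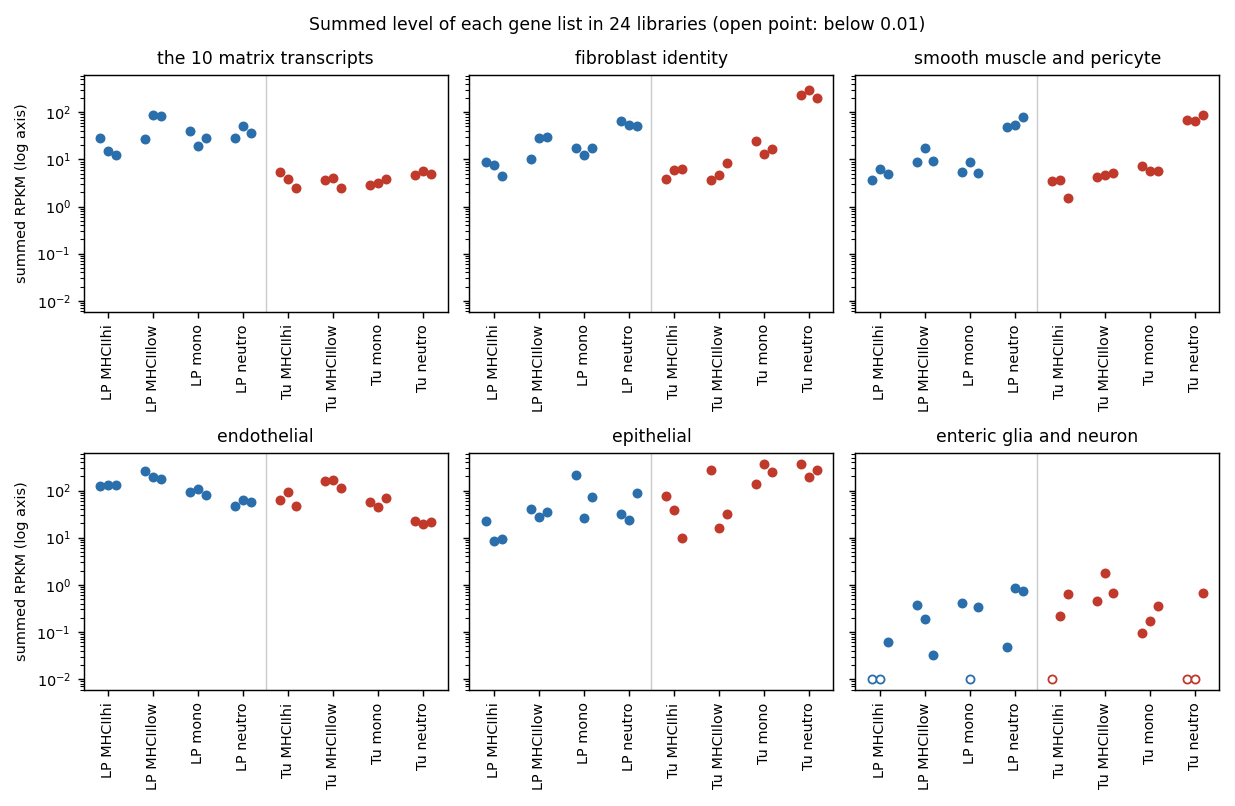
Summed RPKM of the 10 transcripts and of the marker lists of other cells in each library, on a log axis, by population and tissue. The 10 transcripts are lower in every tumour library than in any LP library, endothelial sums are lower in tumour within each population, and epithelial sums run higher in tumour monocytes and neutrophils.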

How the data were processed

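Colon LP and colon tumour myeloid cells from pooled mice were sorted and amplified from low input with a protocol that does not mark strand, and 2 × 51-base reads were obtained. The deposited values are log2 RPKM, which the authors made from STAR 2.3 alignments and featureCounts 1.5 gene counts with edgeR, adding a prior count of 0.25. Whole reads were recovered from them (415224 of 415224 values within 0.001 of a whole number). Even numbers of reads were in excess (61.9 to 72.2% of values of 1 to 20 reads), so 2 reads may be 1 fragment, and intervals and floors (3 reads over a group, 95% Poisson) cover counting error only. Where 2 reads are 1 fragment, the interval is too narrow and the folds given as at least are too high. GENCODE M21 gave positions on GRCm38.

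Tests were limma 3.58.1 (R 4.3.3) with a trend, fitted to the log2 RPKM of all 24 libraries as 8 group means. Each gene had 1 estimate of spread shared by all groups, so groups with libraries at 0 reads widen the SE of every comparison of that gene. A gene was kept where some group averaged 1 RPKM or more, which left 12866, with Benjamini-Hochberg adjustment per comparison at 0.05. All 10 members passed that filter. Dcn, Lum, Bgn, Col1a2, Col3a1, Col6a1 and Sparc did so only through LP groups, as no tumour group of theirs averaged 1 RPKM. A gene kept that way is more open to a fall in tumour than to a rise, so the counts of falls follow in part from the filter. A fold with no log2 scale named comes from reads pooled over a group, scaled to the library size set in the deposited values. Gene lists were fixed before testing but, like the members and comparisons, were chosen with earlier results of these data known. From each list up to 3 genes with the largest rise and 3 with the largest fall per comparison were eligible to be named, together with 11 set markers, and Dcn-like genes were the 5 with the highest Pearson r. Replicates are pools of mice, 3 per group. Libraries of the same tissue and numeral did not deviate together (29 pairs, r -0.065 to 0.255), so the pool is no block. Alternatives were log2(RPKM + 1), no filter, a stricter filter at 5 RPKM, quantile normalization, limma voom on the reads, fits of only the libraries compared, a pool block and leaving out each library. Scripts were tested on simulated data.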

Additional observations from a re-analysis of the deposited data

Results flagged for a closer look

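The tumour effect differed between neutrophils and monocytes for 2 of the 10 genes, by a test of the difference itself within the limma fit. For Col1a1 the effect in neutrophils exceeded that in monocytes by 8.15 on the log2 scale (SE 1.39, limma adjusted p = 0.0012). Each neutrophil library of tumour had 75 to 100 Col1a1 reads and each monocyte library of tumour had 0. For Col4a1 the difference of effects was -2.52 (SE 0.71, limma adjusted p = 0.0304), with 10 to 26 reads per tumour neutrophil library and 353 to 432 per tumour monocyte library. Neither call held under every alternative. For Col1a1 the difference was 0.05 on log2(RPKM + 1) (limma adjusted p = 0.976) and 6.97 with limma voom (adjusted p = 0.139). For Col4a1 the call was lost on log2(RPKM + 1) (limma adjusted p = 0.0988), with quantile normalization (0.079), with limma voom (0.156), with only the libraries compared (0.0587) and without any of 7 single libraries. Limma voom called 0 of the 10 genes, where limma on log2 RPKM called 2 and 2 had an unadjusted p under 0.05. Among all genes tested 9.11% differed in this way, and both tests were added after the values were seen.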

How the results depend on the processing

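The fall of 8 of 10 genes in tumour monocytes and of 8 of 10 in tumour neutrophils stayed at 7 or 8 and at 6 to 9 in the alternatives run, apart from a filter at a mean RPKM of at least 5, which left 5 of the 10 genes to test and gave 5 called in each. Leaving out 1 library gave 7 to 8 in each. Between LP MHCIIlow and MHCIIhi macrophages 0 passed, against 6 on log2(RPKM + 1), 2 with limma voom and 1 each with quantile normalization, with library sizes as summed reads (chosen after seeing the data) and with only the libraries compared, and 0 to 1 when a library was left out, the 1 without MHCIIhi pool III or without MHCIIlow pool II. Between LP neutrophils and monocytes 0 passed, against 2 on log2(RPKM + 1), 2 with limma voom, 1 each with quantile normalization, summed reads and only the libraries compared, and 0 to 1 when a library was left out, the 1 without LP monocyte pool IV. Between tumour MHCIIlow and MHCIIhi macrophages 1 passed, against 0 on log2(RPKM + 1), with a mean RPKM of at least 5, with limma voom and with only the libraries compared, and 0 to 1 when a library was left out. Between tumour neutrophils and monocytes 3 passed, against 0 with a mean RPKM of at least 5, under which those 3 genes were not tested. Matrix list genes called in tumour macrophages numbered 23 in MHCIIhi cells (13 with a mean RPKM of at least 5, 16 to 22 with a library left out) and 32 in MHCIIlow cells (49 with no filter, 14 with a mean RPKM of at least 5, 26 to 31 with a library left out), because the filters change which genes are tested.

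Where a difference was near 0 its sign was not stable. Col4a1 in monocytes ran from -0.11 to 0.55 with a library left out. Col4a2 in neutrophils was -0.03 with limma voom, -0.47 with summed reads and -0.11 to 0.13 with a library left out. The Dcn difference in MHCIIhi macrophages ran from -7.57 to -3.62 and in MHCIIlow macrophages from -8.23 to -6.3 with a library left out, and the latter was -4.49 on log2(RPKM + 1), which compresses low values. With the pool of mice as a replicate block the counts were 8, 8, 0, 1, 0 and 3 in the order of the members' comparisons above (monocytes, neutrophils, LP macrophages, tumour macrophages, LP and tumour neutrophils against monocytes), and 23 and 32 for the matrix lists, so the block changed no count. Tumour levels rest on few reads, over the 12 libraries 134 for Dcn, 100 for Col1a2 and 0 for Lum, so they are imprecise.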
